A study of Mus musculus with 6 samples.

Results

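The immediate early transcription factors examined here were Fos, Fosb, Jun, Junb, Jund, Egr1, Egr2, Atf3, Ier2 and Nr4a1. They were chosen by name, as the genes of the count table whose symbol is one of these 10, out of 22183 genes in all. Each symbol had a single entry in the table, and all 10 genes passed the filter on low counts, which left 14005 genes to test. RNA was sequenced from peritoneal endothelial cells (ECs) of 3 saline mice and 3 PD mice, with 1 library for each mouse. All were male C57BL/6J mice of wild-type genotype, 8 to 10 weeks old. Saline mice received saline and PD mice received glucose-based Dianeal peritoneal dialysis (PD) fluid, each by daily injection into the peritoneal cavity over 6 weeks. The cells came from the mesentery and were sorted for CD31, by magnetic beads in the sample labels and by fluorescence as CD31+ CD45- cells after collagenase digestion in the supplementary methods. Between 21973426 and 26374292 reads were counted on genes per library.

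Immediate early genes are transcribed within minutes of a stimulus without new protein synthesis, mainly through serum response factor with its ETS partners and through CREB, both downstream of MAP kinases. Their mRNAs are short-lived, and several of their products, such as the FOS and JUN proteins that pair to form AP-1, turn on a second wave of genes. In ECs they respond to growth factors, shear stress and inflammatory cytokines, and in many tissues also to enzymatic dissociation and heat.

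The libraries held transcripts of other cells beside those of ECs. Pecam1, which encodes CD31, was at 469 ± 19.4 CPM (SD, n = 3; reads of a gene scaled to the library total and by TMM factors) in saline mice and 514 ± 7.85 CPM (SD, n = 3) in PD mice. Ptprc, which encodes the leukocyte antigen CD45, was at 2373 ± 127 CPM (SD, n = 3) and 1473 ± 63.6 CPM (SD, n = 3), above Pecam1 in every library. The order was the same in FPKM, which also divides by transcript length, with Ptprc at 624 and Pecam1 at 145 FPKM on average in saline mice. The summed level of 12 endothelial markers was 1145 to 1159 CPM in saline mice and 1827 to 1905 CPM in PD mice, and 11 of the 12 passed the test as higher in PD mice. The sum of 10 macrophage and monocyte markers was 2694 to 2837 CPM in saline mice and 11103 to 12022 CPM in PD mice, with all 10 higher. The 9 B cell markers went from 6851 to 7136 CPM down to 3218 to 3282 CPM, with all 9 lower. Fibroblast markers (8 of 8 higher) summed to 91.4 to 97.7 CPM and 840 to 875 CPM, mesothelial markers (8 of 8 higher) to 14.2 to 17.8 CPM and 153 to 179 CPM, and neutrophil markers (6 of 7 higher) to 14.2 to 16.0 CPM and 316 to 354 CPM. Pancreatic acinar markers (12 of 12 higher) rose from 4.49 to 10.4 CPM to between 9544 and 13563 CPM. Mast cell markers (6 of 7) and pericyte and smooth muscle markers (8 of 8) were also higher, while 5 of 6 pan-leukocyte markers were lower and 1 higher, and 4 of 9 T and NK cell markers were lower and 2 higher. No marker of any of these lists was at 3 counts or fewer in every library. The part of these cell types in the levels of the immediate early genes was not tested.

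With TMM scaling, all 10 immediate early genes were higher in PD mice than in saline mice, with no overlap between the groups, and 3 of them reversed when libraries were scaled to endothelial markers. Each passed edgeR's quasi-likelihood test at a Benjamini-Hochberg adjusted p under 0.05. Among all 14005 genes tested, 58.9% passed this test in either direction and 31.1% as higher, and in 34.0% every PD mouse was above every saline mouse. The median log2 fold change of the 10 genes was 0.89, against 0.02 for all genes tested and 0.96 for the 12 endothelial markers. Medians of the other marker lists ran from -1.13 (B cell) to 11.8 (pancreatic acinar). Their summed counts made up 0.605%, 0.542% and 0.644% of all counts in saline mice 1 to 3 and 1.09%, 1.05% and 1.02% in PD mice 1 to 3. In RNA from many cells, a change in the number of cells of a type and a change in RNA per cell cannot be told apart.

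The direction held for 7 of the 10 genes under another scaling. When libraries were scaled to the 12 endothelial markers, the median of all genes moved by -0.69 on the log2 scale, and 16.0% of the called genes were higher in PD mice, against 52.9% with TMM scaling. Among the immediate early genes, 4 then passed as higher (Fos, Jun, Junb and Atf3), while 3 passed as lower (Egr2, Ier2 and Nr4a1). Fosb, Jund and Egr1 had positive log2 fold changes that did not pass. Of all genes tested, 12.2% were higher and 63.7% lower with this scaling. Relative to the summed endothelial markers, therefore, 4 genes rose and 3 fell, and relative to the bulk of the transcriptome all 10 rose. The shift of -0.69 depends on the markers summed, whose own log2 fold changes with TMM scaling ran from 0.13 for Pecam1 to 1.65 for Tie1. Pecam1 did not pass (edgeR adjusted p = 0.0704), and the lowest of the 10 genes with TMM scaling, Nr4a1 at 0.38, was above it. Flt1 (1.46), Vwf (1.48) and Tie1 were above all 10 genes, the highest of which was Atf3 at 1.23. The remaining markers lay between Nr4a1 and Atf3.

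**Figure D1:**
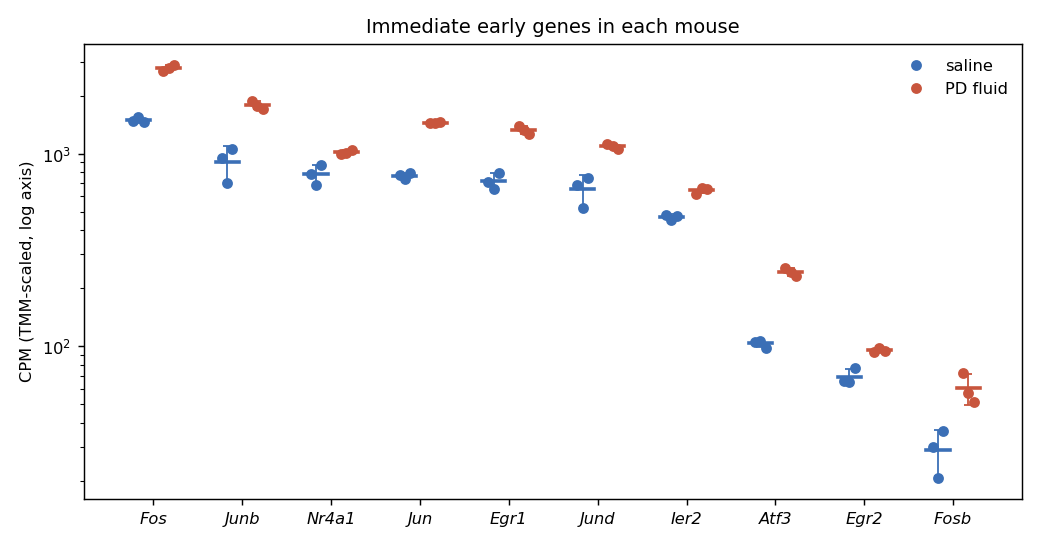
CPM of the 10 immediate early genes in each mouse on a log axis (blue, 3 saline mice; red, 3 PD mice; lines, group means; bars, SD). Every PD mouse lies above every saline mouse for all 10 genes, from Fos at 1493 and 2784 CPM to Fosb at 28.9 and 60.6 CPM on average, with TMM scaling; Egr2, Ier2 and Nr4a1 reverse with endothelial scaling.

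The sequences upstream of these genes were examined for the elements through which they are known to be transcribed. RefSeq promoters on GRCm38.p6 were found for 8 of the 10 genes, with 5 alternative windows for Egr2 and 1 for each of the others. The 250 bases before each start were searched on both strands. The letters TGACG, which form one side of the cAMP response element TGACGTCA and are contained in it, occurred in windows of 6 of the 8 genes (Fos, Fosb, Junb, Egr2, Atf3 and Nr4a1) and in 17.8% of 32851 promoter windows of all genes. The full TGACGTCA occurred in none of the 8 and in 1.55% of all windows. A CArG box, the element bound by serum response factor, was matched only in Egr2 and in 1.47% of all windows. Sequence farther than 250 bases upstream was not searched, so a missing match does not show that a gene lacks the element. Egr1 and Ier2 had no window. The Jund window ended at base 70697738 of chromosome 8, before the gene start at 70698949 used for positions here. The AP-1 element, searched only in the form TGANTCA, occurred in none of the 8 and in 6.75% of all windows, and other forms of it were not searched. The EGR element GCGNGGGCG occurred in Fosb and Nr4a1 and in 4.70% of all windows. The TATAAA box was present in Fos and in 12.4% of all windows. Such matches describe the letters only and do not show binding.

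4 of these windows are shown, because they hold the most TGACG matches (Nr4a1), the CArG box (Egr2), or belong to the genes with the highest level (Fos) and the largest fold change (Atf3). Each ends at the base before the RefSeq start and reads 5′ to 3′ on the strand of the gene. Capitals mark TGACG on either strand (CGTCA when it lies on the other strand) and the CArG box.
Fos, chr12:85473640-85473889, plus strand: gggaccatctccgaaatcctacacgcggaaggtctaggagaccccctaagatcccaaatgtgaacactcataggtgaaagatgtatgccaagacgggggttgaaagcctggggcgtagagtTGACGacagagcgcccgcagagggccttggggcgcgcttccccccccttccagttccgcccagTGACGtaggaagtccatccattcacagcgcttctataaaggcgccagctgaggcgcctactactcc
Egr2, chr10:67537619-67537868, plus strand: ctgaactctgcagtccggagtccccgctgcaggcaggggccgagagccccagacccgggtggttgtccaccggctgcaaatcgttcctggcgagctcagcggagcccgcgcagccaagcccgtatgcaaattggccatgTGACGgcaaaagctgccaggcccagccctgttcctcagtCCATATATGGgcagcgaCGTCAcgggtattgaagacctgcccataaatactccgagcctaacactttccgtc
Atf3, chr1:191183334-191183583, minus strand: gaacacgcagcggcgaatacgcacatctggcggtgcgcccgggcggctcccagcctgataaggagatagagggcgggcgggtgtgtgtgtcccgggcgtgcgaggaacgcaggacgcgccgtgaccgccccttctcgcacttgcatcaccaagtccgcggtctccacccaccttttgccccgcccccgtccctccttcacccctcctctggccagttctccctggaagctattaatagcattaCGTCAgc
Nr4a1, chr15:101266596-101266845, plus strand: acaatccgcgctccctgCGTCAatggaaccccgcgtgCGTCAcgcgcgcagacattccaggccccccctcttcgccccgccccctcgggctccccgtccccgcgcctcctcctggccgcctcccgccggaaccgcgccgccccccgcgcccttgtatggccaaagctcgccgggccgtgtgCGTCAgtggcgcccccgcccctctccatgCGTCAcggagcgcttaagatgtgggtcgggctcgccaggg
In Fos, TGACG lay 129 to 125 and 66 to 62 bases before the start, the second just upstream of the TATAAA box at 33 to 28 bases. In Egr2, the CArG box lay 72 to 63 bases before the start, between TGACG matches at 111 to 107 and 55 to 51 bases. Atf3 had a single match at 7 to 3 bases, and Nr4a1 had 4, from 233 to 36 bases before the start.

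Fos and Fosb encode FOS proteins, which bind DNA only as dimers with JUN proteins. Fos was at 1471, 1545 and 1464 CPM in saline mice 1 to 3 and at 2677, 2782 and 2891 CPM in PD mice 1 to 3. The 3 saline values lay close together, and the lowest PD mouse was far above the highest of them. Fos (ENSMUSG00000021250, GRCm38 chromosome 12, 85473890 to 85477273) rose by a log2 fold change of 0.90 ± 0.06 (SE; edgeR adjusted p = 4.9e-07), or 1.86-fold, and by 0.21 ± 0.07 with endothelial scaling (adjusted p = 0.0208). It was the most abundant of the 10 genes per transcript length in both groups, at 706 ± 15.3 FPKM (SD, n = 3) in saline mice and 1324 ± 15.4 FPKM (SD, n = 3) in PD mice. Among all genes of the table it ranked between 78 and 82 by FPKM in saline mice and between 33 and 36 in PD mice.

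Fosb (ENSMUSG00000003545, chromosome 7) was the least abundant of the 10. Its level was 29.9, 20.7 and 36.2 CPM in the 3 saline mice and 72.8, 57.3 and 51.6 CPM in the 3 PD mice. Saline mouse 2 was the lowest of all, and the groups did not overlap, although the spread within each group was the widest among the 10 genes (coefficient of variation 27.1% in saline mice and 18.1% in PD mice). The log2 fold change was 1.07 ± 0.18 (SE; edgeR adjusted p = 0.00051), and 0.37 ± 0.17 with endothelial scaling, which did not pass (adjusted p = 0.0676).

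The 2 other FOS family genes were far less abundant. Fosl2 was at 7.54, 6.18 and 6.87 CPM in saline mice and at 19.6, 20.6 and 23.2 CPM in PD mice, a log2 fold change of 1.62 ± 0.13 (SE; edgeR adjusted p = 1.7e-06). Fosl1 had 0, 2 and 0 counts in saline mice and 4, 16 and 5 counts in PD mice, and was not tested. Within a library, Fos made up 98.7% ± 0.383 (SD, n = 3) of the summed FPKM of the FOS family in saline mice and 98.3% ± 0.301 (SD, n = 3) in PD mice, with overlapping groups (exact permutation test, two-sided p = 0.5). The share of Fosb was 1.20% and 1.40% with overlap, and that of Fosl2 was 0.146% and 0.241% without overlap (exact permutation p = 0.1, which is the lowest p reachable with 3 mice a group, and adjusted p = 0.233 over 7 shares). Such shares do not depend on how libraries are scaled to each other. The summed FOS family level was 715 ± 12.7 FPKM (SD, n = 3) in saline mice and 1346 ± 11.6 FPKM (SD, n = 3) in PD mice.

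Jun, Junb and Jund encode the JUN proteins, the partners of FOS proteins in AP-1. c-Jun, the product of Jun, is a strong activator that also drives its own promoter, JunB can weaken c-Jun activity, and JunD is usually present in unstimulated cells. Jun (ENSMUSG00000052684, chromosome 4) was at 775, 742 and 789 CPM in saline mice and at 1440, 1434 and 1457 CPM in PD mice. The PD mice were nearly identical, with a coefficient of variation of 0.831%. Its log2 fold change was 0.91 ± 0.06 (SE; edgeR adjusted p = 2.6e-07), and 0.22 ± 0.07 with endothelial scaling (adjusted p = 0.0114).

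Junb (ENSMUSG00000052837, chromosome 8) was at 952, 699 and 1060 CPM in saline mice and at 1880, 1765 and 1703 CPM in PD mice. Jund (ENSMUSG00000071076, chromosome 8) was at 687, 520 and 749 CPM in saline mice and at 1119, 1092 and 1053 CPM in PD mice. Both were lowest in saline mouse 2, by more than the other saline mice differed, and neither showed overlap between the groups. The log2 fold change was 0.98 ± 0.12 (SE; edgeR adjusted p = 6.2e-05) for Junb and 0.74 ± 0.11 (SE; adjusted p = 0.00021) for Jund. With endothelial scaling Junb was at 0.29 ± 0.12 (adjusted p = 0.0497) and Jund at 0.05 ± 0.11 (adjusted p = 0.719). Some exonic bases of Junb are shared with Prdx2, of Jun with Junos and of Jund with Gm11175, each on the other strand, and reads from such stretches cannot be assigned without strand.

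Junb took the largest share of the JUN family FPKM in each mouse. Its share was 44.5%, 41.5% and 45.7% in saline mice and 48.1%, 46.9% and 46.4% in PD mice, while that of Jund was 34.9%, 33.5% and 35.0% in saline mice and 31.1%, 31.5% and 31.1% in PD mice. The share of Junb was thus 3.20 percentage points higher and that of Jund 3.25 points lower in PD mice, both without overlap (exact permutation p = 0.1 and adjusted p = 0.233 for each). Without saline mouse 2 the differences were 2.01 points for Junb and -3.74 points for Jund. When shares of counts replaced shares of FPKM, the groups overlapped for Junb (exact permutation p = 0.2). Shares do not remove effects of GC content, which was 62.6% for Junb, 67.1% for Jund and 55.5% for Jun. After correction of each library for its GC trend, their log2 fold changes were 0.57, 0.33 and 0.74, and Jun rather than Junb was highest. Shares of Junb, Jund and Jun with this correction were not computed. The share of Jun was 21.6% ± 2.99 (SD, n = 3) in saline mice and 21.7% ± 0.815 (SD, n = 3) in PD mice (exact permutation p = 1). The JUN family summed to 1128 ± 189 FPKM (SD, n = 3) in saline mice and 2099 ± 124 FPKM (SD, n = 3) in PD mice. The ratio of JUN to FOS family FPKM was 1.58 ± 0.289 (SD, n = 3) in saline mice and 1.56 ± 0.105 (SD, n = 3) in PD mice. In FPKM, both families were thus higher in PD mice by nearly the same factor, 1.86 for JUN and 1.88 for FOS. These factors were not corrected for GC content. With GC correction the log2 fold change of Fos was 0.84, above those of Jun, Junb and Jund.

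**Figure D2:**
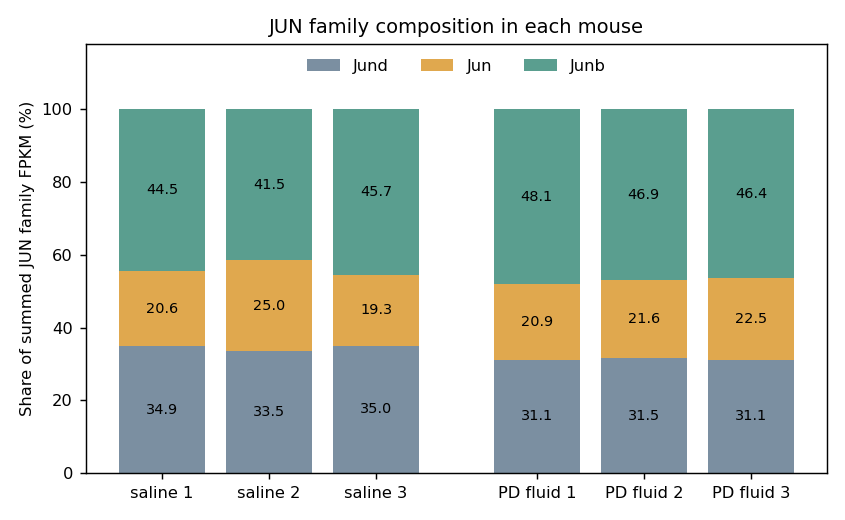
Share of Jund, Jun and Junb in the summed FPKM of the JUN family in each of the 6 mice (stacked bars, percent). Junb runs from 41.5% to 45.7% in saline mice and from 46.4% to 48.1% in PD mice, and Jund from 33.5% to 35.0% and from 31.1% to 31.5%. Shares are not corrected for GC content.

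Egr1 and Egr2 encode zinc finger factors that bind GC-rich sites, and EGR1 is a rapid responder to shear stress and vascular injury. Egr1 (ENSMUSG00000038418) was at 713, 658 and 793 CPM in saline mice and at 1396, 1323 and 1266 CPM in PD mice. Every PD mouse was well above the saline range. The log2 fold change was 0.88 ± 0.08 (SE; edgeR adjusted p = 3.6e-06), and 0.19 ± 0.08 with endothelial scaling (adjusted p = 0.0508).

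Egr2 (ENSMUSG00000037868, chromosome 10), which also acts in lymphocytes and macrophages, was at 66.3, 65.2 and 77.2 CPM in saline mice and at 93.3, 97.6 and 94.3 CPM in PD mice. The gap between the groups was smaller than for Egr1. Its log2 fold change was 0.45 ± 0.08 (SE; edgeR adjusted p = 0.00063) but -0.24 ± 0.09 with endothelial scaling (adjusted p = 0.0236). Egr3 went the other way, with 8.98, 7.89 and 10.2 CPM in saline mice and 6.03, 6.08 and 4.94 CPM in PD mice, a log2 fold change of -0.66 (edgeR adjusted p = 0.0045) and of -1.36 with endothelial scaling. Egr4 had 0 counts in every saline mouse and 12, 2 and 0 counts in the PD mice, and was not tested. Nab1 and Nab2 encode corepressors that bind EGR1 and EGR2. Nab2, itself an EGR target, was at 10.9, 6.36 and 11.0 CPM in saline mice and at 23.9, 20.2 and 18.8 CPM in PD mice, a log2 fold change of 1.15 (edgeR adjusted p = 0.00042) and of 0.46 with endothelial scaling. Nab1 was at 0.32 (adjusted p = 0.0033), but at -0.37 with endothelial scaling.

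Atf3 encodes a stress-inducible member of the ATF/CREB family that can pair with JUN proteins and often represses. Atf3 (ENSMUSG00000026628, chromosome 1) was at 105, 107 and 98.5 CPM in saline mice and at 254, 243 and 230 CPM in PD mice. All PD mice were far above every saline mouse. It had the highest log2 fold change of the 10 genes, 1.23 ± 0.07 (SE; edgeR adjusted p = 6.6e-08), or 2.35-fold, and was higher also with endothelial scaling (0.54 ± 0.07, adjusted p = 1.2e-05). Of all genes tested, 12.2% had a larger log2 fold change than Atf3.

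Ier2 encodes a small nuclear protein of the serum response, and Nr4a1 an orphan nuclear receptor (Nur77) that responds to growth factors and to antigen receptors. Ier2 (ENSMUSG00000053560, chromosome 8) was at 482, 450 and 475 CPM in saline mice and at 620.0, 662 and 657 CPM in PD mice. Nr4a1 (ENSMUSG00000023034, chromosome 15) was at 783, 684 and 873 CPM in saline mice and at 997, 1001 and 1048 CPM in PD mice. Nr4a1 had the smallest gap between the groups, with saline mouse 3 nearest to the PD mice. The log2 fold changes were 0.46 ± 0.06 (SE; edgeR adjusted p = 6.9e-05) for Ier2 and 0.38 ± 0.08 (SE; adjusted p = 0.0025) for Nr4a1, but -0.23 ± 0.07 (adjusted p = 0.0125) and -0.31 ± 0.09 (adjusted p = 0.0079) with endothelial scaling. After correction for GC content neither passed, at 0.07 (adjusted p = 0.553) and 0.15 (adjusted p = 0.0906). With TMM scaling, the 95% intervals of Egr2, Ier2 and Nr4a1 ended at 0.61, 0.58 and 0.54. These ends lay below the start of the intervals of Fos, Fosb, Jun, Junb, Egr1 and Atf3, the lowest of which was 0.71 (Fosb). After GC correction the interval of Egr2 (0.40 ± 0.08, SE) overlapped those of Junb (0.57 ± 0.07, SE) and Egr1 (0.63 ± 0.06, SE). The 2 other NR4A genes were less abundant. Nr4a3 rose by 1.18 on the log2 scale (adjusted p = 0.0016), with 2.19, 2.72 and 1.74 CPM in saline mice and 4.19, 6.16 and 4.67 CPM in PD mice. Nr4a2 was at 0.62 (adjusted p = 0.0042). With endothelial scaling neither passed, at 0.49 and -0.07.

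**Figure D3:**
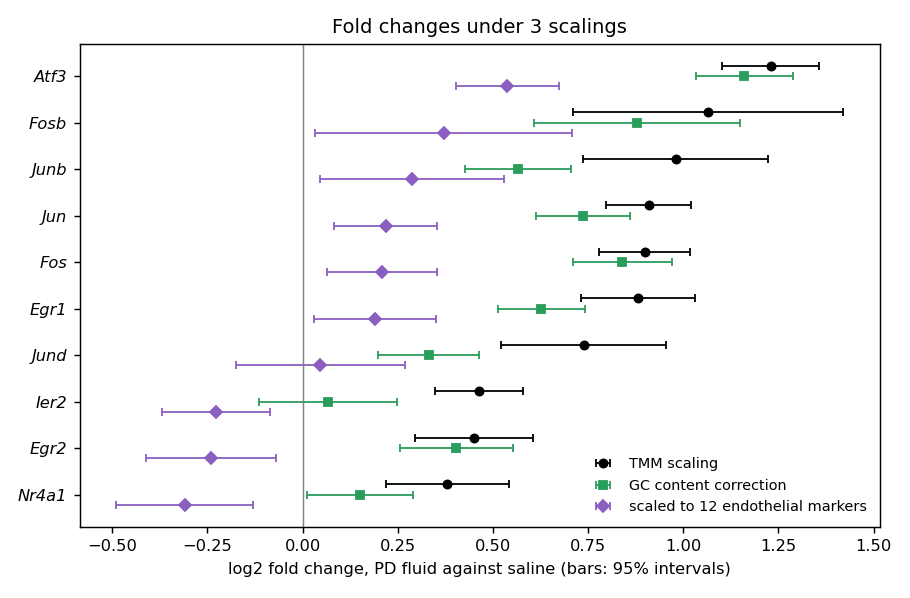
Log2 fold change of each immediate early gene, PD mice against saline mice, with bars of 95% intervals, under TMM scaling (black), after correction for GC content (green) and with libraries scaled to 12 endothelial markers (purple). All 10 are above 0 with TMM scaling, and Egr2, Ier2 and Nr4a1 are below 0 with endothelial scaling.

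The order of levels per transcript length differed little between the groups. In saline mice it ran from Fos (706 FPKM) through Junb (498), Jund (390), Nr4a1 (315), Ier2 (307), Jun (240), Egr1 (226), Atf3 (51.9) and Egr2 (23.4) to Fosb (8.55 FPKM). The ranges of Junb and Jund, Jund and Nr4a1, Nr4a1 and Ier2, and Jun and Egr1 overlapped there. Within each saline mouse, however, Junb was above Jund and Jund above Nr4a1. The order of Nr4a1 and Ier2, and that of Jun and Egr1, differed between saline mice. In PD mice the mean FPKM was 1324 for Fos, 989 for Junb, 655 for Jund, 454 for Jun, 425 for Ier2, 419 for Egr1, 412 for Nr4a1, 123 for Atf3, 32.3 for Egr2 and 18.8 for Fosb. Only the ranges of Ier2 and Egr1 and of Egr1 and Nr4a1 overlapped among neighbours. Jun moved from the sixth to the fourth place and Nr4a1 from the fourth to the seventh.

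The genes also differed in how the mice of a group were ordered. Among PD mice, Fosb, Junb, Jund, Egr1 and Atf3 were highest in mouse 1 and lowest in mouse 3, whereas Fos was highest in mouse 3 and lowest in mouse 1. Across the 6 libraries, Pearson's r of log2 CPM between pairs of the 10 genes ran from 0.846 (Atf3 and Nr4a1) to 0.998 (Junb and Jund), where all points share the split into treatments. By the same measure over 13882 other genes, the closest to Fos were Cd63, a tetraspanin of endosomes, Ifitm2, an interferon-induced membrane protein, and Tmem165, a Golgi membrane protein. They are no narrow group, since 1888 genes (13.6%) had r over 0.95 with Fos. Closest to Jund were Actr1a, a dynactin subunit, Vps37b, an endosomal sorting protein, and Fscn1, an actin-bundling protein, and 950 genes (6.84%) had r over 0.95 with it.

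Saline mouse 2 stood apart in several of the 10 genes. Its log2 level minus the mean of the other 2 saline mice was -0.68 for Fosb, -0.52 for Junb, -0.47 for Jund, -0.28 for Nr4a1, -0.19 for Egr1, -0.14 for Egr2, -0.09 for Ier2 and -0.08 for Jun, but 0.07 for Fos and 0.07 for Atf3. Over all tested genes, the median of the same difference fell from 0.09 in the 1399 genes with the lowest GC content to -0.21 in the 1399 with the highest. Junb, Jund and Ier2, at 62.6%, 67.1% and 60.9% GC, belong to the latter, while Fosb, with the largest gap, had 56.0% GC. Without saline mouse 2, all 10 genes still passed, with log2 fold changes of 0.83 for Junb, 0.60 for Jund, 0.88 for Fosb and 0.29 for Nr4a1. In that fit 4144 of all 14293 genes tested were higher. When every library was corrected for its own GC trend, 8 of the 10 genes were still higher, beside 4262 of all 14005 genes tested. This alternative was added once the data had been seen. Junb was then at 0.57 and Jund at 0.33, while Ier2 and Nr4a1 no longer passed, as given above. Fos (0.84) and Atf3 (1.16) moved least among the genes above 0.5. Leaving out saline mouse 2 moved Ier2 less, to 0.43, against 0.07 after GC correction. The correction thus changed more than the part of that mouse, and a GC trend between the groups was not tested.

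**Figure D4:**
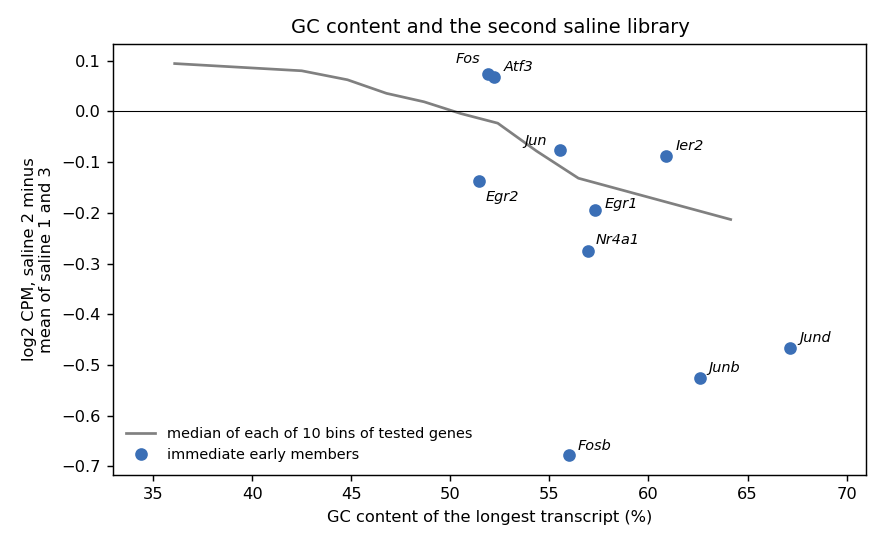
Log2 CPM of saline mouse 2 minus the mean of saline mice 1 and 3, against the GC content of the longest transcript of each gene (percent). Points are the 10 immediate early genes and the grey line the median of each of 10 bins of all tested genes by GC content, which falls from 0.09 to -0.21 as GC content rises.

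The gene lists around these factors are described by their counts beside those of all tested genes, of which 31.1% were higher and 27.8% lower. With endothelial scaling, 12.2% of all tested genes were higher and 63.7% lower. Of 17 tested genes among the other AP-1 and ATF/CREB factors, 11 were higher and 1 lower, with a median log2 fold change of 0.62. With endothelial scaling the counts were 4 higher and 7 lower. Jdp2, a partner of JUN proteins that represses AP-1, was at 2.34, 2.54 and 2.195 CPM in saline mice and at 10.9, 9.06 and 7.93 CPM in PD mice, with a log2 fold change of 1.98. The groups lay far apart, and the log2 fold change was 1.81 for Atf5 and 1.50 for Batf2. Of these, Atf5 did not pass with endothelial scaling (1.12, adjusted p = 0.055). Batf3, a factor of dendritic cells, was at 0.62, but did not pass with endothelial scaling (-0.06) or after GC correction (0.22, adjusted p = 0.397). Batf did not pass, with a log2 fold change of 0.06 and an adjusted p of 0.56. Creb1, one of the kinase-activated factors upstream of Fos, was the one lower gene, at -0.33, and did not pass after GC correction (-0.10).

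The kinases and factors upstream of immediate early genes showed no common direction. Of 24, 7 were higher and 6 lower, with a median of 0.12, near the 31.1% higher and 27.8% lower among all tested genes. With endothelial scaling 0 were higher and 17 lower, beside 12.2% higher and 63.7% lower among all tested genes. The stress kinase gene Rps6ka4 (MSK2) was at 1.06 (adjusted p = 0.0013), Elk1, an ETS partner of serum response factor, at 0.96 (adjusted p = 0.0039) and Mapkapk2 at 0.64 (adjusted p = 0.0054). With endothelial scaling these 3 did not pass (0.36, 0.26 and -0.06). Rps6ka5 (MSK1) and Mapk11 (p38 beta) fell, at -0.70 and -0.68. Srf, which encodes serum response factor and lies outside the rule for named genes, was at 5.08, 3.60 and 6.05 CPM in saline mice and 7.40, 3.98 and 4.21 CPM in PD mice (log2 fold change 0.09, adjusted p = 0.799).

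The feedback inhibitors of MAP kinases, most of which are themselves transcribed upon kinase activity, had 9 of 14 genes higher and 1 lower, with a median of 0.58. With endothelial scaling 3 were higher and 7 lower. Dusp1, a phosphatase of p38 and JNK, was at 1295, 1370 and 1313 CPM in saline mice and at 2573, 2777 and 3005 CPM in PD mice, with a log2 fold change of 1.07 (adjusted p = 3.6e-07). Like Fos, it had values in PD mice far above the saline range. Spred1, an inhibitor of RAS to RAF signalling, was at 1.42 and Dusp8 at 1.12, the latter without passing under endothelial scaling (0.43, adjusted p = 0.0722).

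Of 32 other primary response genes, 25 were higher and 1 lower, with a median of 0.66, and 13 higher and 9 lower with endothelial scaling. The largest rises were in Socs3, an inhibitor of cytokine receptor signalling (1.75), Ier5l (1.74) and Ccn2, which encodes connective tissue growth factor (1.65). Btg1, an antiproliferative gene, was lower at -0.27, and at -0.14 after GC correction, where it did not pass (adjusted p = 0.116). Myc, named after its values were seen, was at 192 CPM in both groups (log2 fold change 0.00, adjusted p = 0.989).

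Among genes that AP-1 and EGR1 are known to bind, 13 of 16 tested were higher and 1 lower, with a median of 1.53, and 8 were higher and 2 lower with endothelial scaling. Mmp3, a matrix metalloproteinase, had the largest rise (3.89), followed by Timp1, an inhibitor of metalloproteinases (3.46), and Spp1, which encodes osteopontin (3.18). These genes are also transcribed in fibroblasts or macrophages, whose markers were higher in the same libraries as given above. Plaur, the urokinase receptor, was lower at -0.28 and did not pass without saline mouse 1, PD mouse 1 or PD mouse 2 (log2 fold change -0.39 to -0.19 over the libraries left out).

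Heat shock genes, which together with immediate early genes respond to tissue dissociation, rose in 10 of 12 cases, while the other 2 did not pass, and had a median of 1.02. With endothelial scaling 6 were higher and 2 lower. Hsph1 was at 1.86, Dnaja1 at 1.32 and Hspb1 at 1.26, and all of these passed with endothelial scaling as well (1.17, 0.63 and 0.57). Heat shock and immediate early transcripts were thus higher in the same 3 libraries, and the part of the isolation of the cells in either was not tested.

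**Figure D5:**
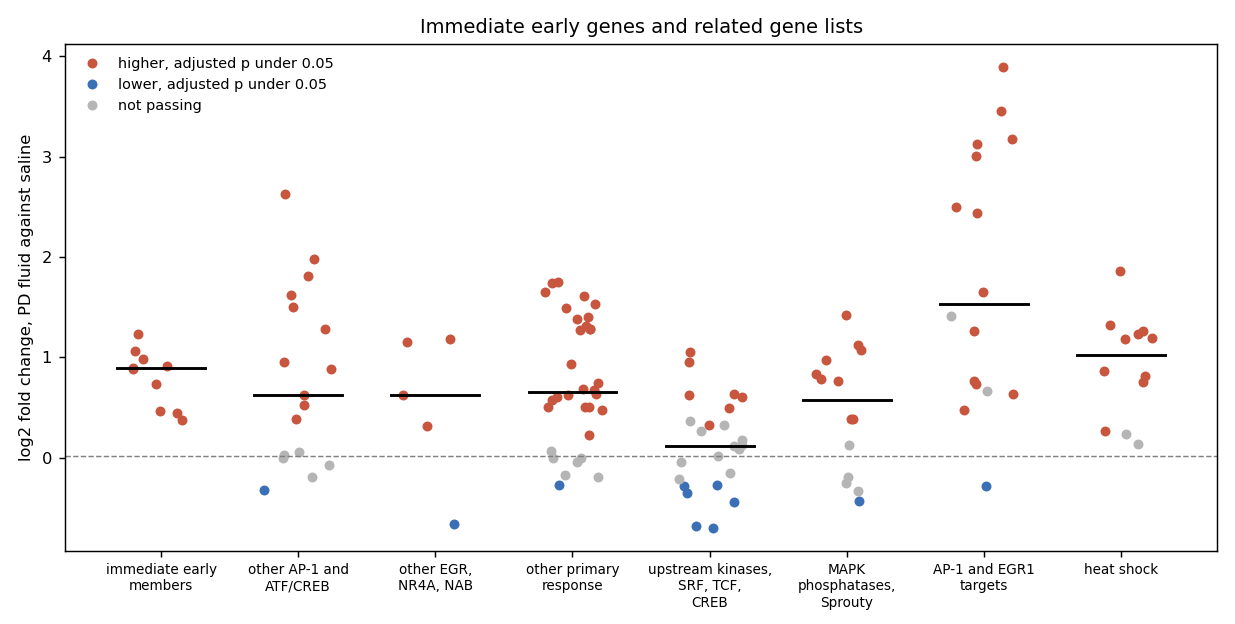
Log2 fold change (PD mice against saline mice, TMM scaling) of each tested gene of the immediate early group and of 7 related lists. Red points passed as higher, blue as lower and grey did not pass; black lines are list medians, from 0.12 for upstream kinases and factors to 1.53 for AP-1 and EGR1 targets, and the dashed line is the median of all tested genes (0.02). Endothelial scaling moves the median of all genes by -0.69.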

How the data were processed

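The authors deposited 1 table with a read count and an FPKM value per gene for each of 6 libraries, beside group mean FPKM, a log2 ratio, a p-value and an FDR of their own test. The counts were not normalized, and the deposited group means, log2 ratio, p-value and FDR columns were not used. No sample column was left unmatched (0). The submitters' processing notes list fastp 0.18.0, Bowtie2 2.2.8, HISAT2, StringTie 1.3.1 and RSEM, and the study's methods name limma. The genome build, annotation and strand setting are not given in the sources used here. Positions are from GENCODE M21 on GRCm38, to which 22128 of 22183 gene identifiers matched, and GC content is that of the longest transcript there.

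Counts were filtered with filterByExpr, scaled by TMM and tested with edgeR 4.0.16 in R 4.3.3 (quasi-likelihood test, PD fluid against saline, no covariate, Benjamini-Hochberg adjustment over 14005 genes, threshold 0.05). CPM values are TMM-scaled, and correlations used log2(CPM + 1). FPKM was used only for levels between genes, for family sums and their ratios, and for shares within families. The shares had exact permutation tests (two-sided) over mice. The fit was tested on simulated data. Alternatives were limma-voom (limma 3.58.1), DESeq2 1.42.0, no TMM factors, endothelial scaling, no low count filter, the replicate number as a block, no acinar genes, each mouse left out, and GC correction, the last chosen after seeing the data. Replicates were separate mice.

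The members and the gene lists were chosen with earlier results of these data known. Besides the 10 members, the genes named are the FOS, BATF, JDP2, EGR, NR4A and NAB relatives, and from each other list up to 3 rises and 2 falls, the largest among genes past the threshold with a mean count of at least 10 and no overlap between groups. The 3 genes most like Fos and like Jund and the label checks Pecam1, Cdh5 and Ptprc complete the rule. A gene that the rule names is not reported here. Cdh5 averaged 18.9 CPM without and 33.3 CPM with PD fluid.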

Additional observations from a re-analysis of the deposited data

How the results depend on the processing

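All 10 immediate early genes passed as higher with DESeq2, limma-voom, no TMM factors, no low count filter, the acinar genes left out, the replicate number as a block, and each mouse left out in turn. Over all genes, 4359 were higher and 3887 lower, and 3852 to 4333 and 3121 to 3685 with each mouse left out. With endothelial scaling the counts were 1705 higher and 8925 lower over all genes and 4 higher and 3 lower among the immediate early genes, where Egr2 (-0.24), Ier2 (-0.23) and Nr4a1 (-0.31) reversed. In the same scaling, the higher and lower counts were 4 and 7 for other AP-1 and ATF/CREB genes, 1 and 2 for EGR, NR4A and NAB genes, 13 and 9 for primary response genes, 0 and 17 for upstream kinases and factors, 3 and 7 for MAPK phosphatases and Sprouty genes, 8 and 2 for AP-1 and EGR1 targets, and 6 and 2 for heat shock genes. GC correction left 8 members higher, beside 4262 higher and 3690 lower over all genes. It changed the lower count from 1 to 0 for other AP-1 and ATF/CREB genes and for primary response genes. For MAPK phosphatases and Sprouty genes the lower count went from 1 to 2. The lower count of primary response genes was 2 without TMM factors, without the low count filter and with DESeq2, and that of MAPK phosphatases and Sprouty genes was 0 without TMM factors. With each mouse left out, the lower counts ran from 1 to 2 for primary response genes, from 0 to 2 for MAPK phosphatases and Sprouty genes and from 0 to 1 for AP-1 and EGR1 targets. For MAPK phosphatases and Sprouty genes the count was 2 without saline mouse 2 and 0 without saline mouse 1, saline mouse 3 or PD mouse 2. For AP-1 and EGR1 targets it was 0 without saline mouse 1, PD mouse 1 or PD mouse 2, and for primary response genes it was 2 without PD mouse 3. The share of Fosl2 in the FOS family rose by 0.09 percentage points in FPKM and by 0.29 points in counts. The causes of these shifts were not tested.

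The replicate number was fitted as a block, which gave 4242 higher and 3667 lower genes and 10 immediate early genes higher, with 2 lower primary response genes and 0 lower MAPK phosphatases and Sprouty genes. The numbers are not stated to pair the mice. Deviations of same-numbered mice correlated at 0.19, 0.07 and -0.27, and those of differently numbered mice at -0.41 to 0.36. With 3 mice a group, such values cannot decide whether the mice were paired.

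With 3 mice a group, an exact permutation test cannot give a p under 0.1, which no family share can pass. Counts behind the 10 members ran from 448 (Fosb, saline mouse 2) to 72763 (Fos, PD mouse 1).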

Other observations

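The ZFP36 proteins bind AU-rich elements and hasten the decay of short-lived mRNAs, those of several immediate early genes included. Their genes are described here after their values were seen. Zfp36 was at 518, 431 and 510 CPM in saline mice and at 1451, 1260 and 1140 CPM in PD mice, a log2 fold change of 1.40 ± 0.10 (SE; edgeR adjusted p = 6.2e-07) and of 0.71 with endothelial scaling. The groups lay far apart. Zfp36l2 was at 51.2, 35.5 and 60.1 CPM in saline mice and at 162, 140 and 123 CPM in PD mice, with log2 fold changes of 1.53 ± 0.16 (SE; adjusted p = 1.7e-05) and 0.84. Both were lowest in saline mouse 2. Zfp36l1 was at 317 ± 21.5 CPM (SD, n = 3) in saline mice and 316 ± 6.34 CPM (SD, n = 3) in PD mice, with a log2 fold change of 0.00 (adjusted p = 0.963) and of -0.69 with endothelial scaling.

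Crem, which encodes cAMP-responsive factors including the early repressor ICER, and the small MAF genes, whose products lack an activation domain, were also named after their values were seen. Crem was at 31.0, 33.6 and 29.7 CPM in saline mice and at 52.8, 62.4 and 58.4 CPM in PD mice, a log2 fold change of 0.88 ± 0.09 (SE; edgeR adjusted p = 1.3e-05) that did not pass with endothelial scaling (0.19). The log2 fold changes of Maff, Mafg and Mafk were 1.28, 0.52 and 0.38, all past the threshold, and 0.59, -0.17 and -0.31 with endothelial scaling.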
